A study of Mus musculus with 8 samples.

Results

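Wnt ligands, their receptors and their antagonists were followed in mouse colon tumours as a set of 47 genes out of the 38355 genes in the count tables. The genes were taken by name: 19 Wnt ligands, 10 Frizzled receptors, 4 R-spondins, 11 secreted antagonists and 3 feedback inhibitors, and all 47 matched a single Ensembl identifier. The rule that lists them uses names and no values, but it was written with earlier results of these data known. The RNA came from 8 azoxymethane-treated mice, with 1 whole colon tumour from each: 4 Trp53ΔIEC tumours and 4 Trp53ΔIECAktE17K tumours. Azoxymethane is a colon carcinogen and was given to both groups, and the field uses ΔIEC for a gene deleted in intestinal epithelial cells. AktE17K is a form of the AKT kinase made active by a substitution. The comparison therefore asks how tumours that carry active AKT besides the loss of Trp53 differ from tumours with the loss of Trp53 alone. No group without azoxymethane, without a tumour or with intact Trp53 was part of it, and the labels give no age, sex or litter and do not name the driver of the deletion. Trp53 transcripts were at 24.001 ± 2.19 CPM (SD, n = 4) in Trp53ΔIEC and 29.0 ± 5.79 CPM in Trp53ΔIECAktE17K tumours, and Akt1 was at 397.5 ± 22.2 and 371.3 ± 30.6 CPM; whole-tumour counts include cells without the deletion and do not show alleles, so they do not check the genotypes.

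Wnt proteins are secreted lipid-modified ligands that bind a Frizzled receptor together with an LRP co-receptor at the cell surface, which stops the destruction of beta-catenin and lets it switch on target genes with TCF/LEF factors. R-spondins raise the response by taking the ubiquitin ligases RNF43 and ZNRF3 away from Frizzleds, while SFRP, WIF1, DKK and NOTUM proteins act outside the cell on the ligands or the co-receptors. In the intestine this pathway keeps the crypt stem cells, R-spondins come largely from mesenchymal cells around the crypt, and beta-catenin activation in the epithelium is a usual step in colon tumours.

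Promoters of called genes are shown here because Fzd1, Rspo1 and Sfrp2 were all called higher in the comparison described further on, though they did not order the tumours of a group alike. They are the called members whose start in the RefSeq table for GRCm38.p6 could be used. That table held 31 of the 47 members, Rspo3, Sfrp1 and Fzd3 were not among them, and Frzb was left out because its RefSeq start lies 229 bases inside the GENCODE gene. Each sequence is the 250 bases before the start, 5′ to 3′ on the strand of the gene, with CpG dinucleotides in capitals. For Fzd1 the RefSeq start lies upstream of the GENCODE start, and for Rspo1 and Sfrp2 both starts are the same base.
Fzd1, chr5:4758217-4758466, minus strand: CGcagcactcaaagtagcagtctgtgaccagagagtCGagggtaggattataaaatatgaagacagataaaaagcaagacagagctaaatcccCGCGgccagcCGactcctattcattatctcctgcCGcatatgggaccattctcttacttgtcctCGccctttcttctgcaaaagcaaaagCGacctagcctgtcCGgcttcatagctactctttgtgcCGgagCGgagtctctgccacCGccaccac
Rspo1, chr4:124986180-124986429, plus strand: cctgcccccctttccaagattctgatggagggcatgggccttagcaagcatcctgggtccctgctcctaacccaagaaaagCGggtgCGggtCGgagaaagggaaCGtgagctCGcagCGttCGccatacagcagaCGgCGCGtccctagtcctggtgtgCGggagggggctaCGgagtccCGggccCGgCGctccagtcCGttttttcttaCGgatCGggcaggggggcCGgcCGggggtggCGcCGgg
Sfrp2, chr3:83766071-83766320, plus strand: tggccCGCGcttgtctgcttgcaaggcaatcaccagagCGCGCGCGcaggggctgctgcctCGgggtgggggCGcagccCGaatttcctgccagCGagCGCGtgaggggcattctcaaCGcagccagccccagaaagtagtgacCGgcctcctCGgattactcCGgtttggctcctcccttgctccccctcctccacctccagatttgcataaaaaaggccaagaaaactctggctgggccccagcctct
The windows hold 12 CpG dinucleotides for Fzd1, 22 for Rspo1 and 16 for Sfrp2, against a median of 6 over all 32851 promoters of the same length in the table. On both strands, 5 short motifs were searched: the TCF/LEF core CTTTGA, present in 13.8% of all promoters, the RBPJ core TGGGAA in 21.6%, the TEAD core GGAATG in 12.6%, the GC box GGGCGG in 32.7% and the TATA box TATAAA in 12.4%. None of these motifs overlapped another in the 3 windows. Fzd1 had the TCF/LEF core, read on the minus strand as TCAAAG, 242 bases before the start and the TATA box 202 bases before it. Rspo1 and Sfrp2 held none of the 5 in these windows. These matches describe letters only and were not set against any measurement of binding.

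Reads assigned to genes ranged from 18572180 to 26268547 per tumour. Levels are CPM, reads of a gene relative to the TMM-scaled library size, and fold changes are Trp53ΔIECAktE17K over Trp53ΔIEC from edgeR's quasi-likelihood test with Benjamini-Hochberg adjustment over the 16539 genes that passed the count filter. A gene was called at an adjusted p under 0.05. Over all genes, 569 were called higher and 125 lower in Trp53ΔIECAktE17K tumours. A letter of unstated meaning stands in the titles: 2 tumours, Trp53ΔIECAktE17K replicates 1 and 2, carry A, while the remaining 6 carry B. In the codes of the deposited tables the letter A goes with every Trp53ΔIECAktE17K tumour, so that there it cannot be told apart from genotype. Heart muscle transcripts also followed genotype: Myh6 lay between 47.6 and 57.0 CPM in the 4 Trp53ΔIECAktE17K tumours and at 0.223 CPM or lower in the Trp53ΔIEC tumours, Myl3 had 0 reads in every Trp53ΔIEC tumour, and 5 of 7 tested heart muscle markers were called higher. The liver gene Crp showed the opposite, with 4.81 to 5.64 CPM in Trp53ΔIEC tumours and 0.0423 CPM or lower in the others, as the single hepatocyte marker called of 6. The 6 tested hepatocyte markers had 3 log2 fold changes above 0 and 3 below. Summed levels of the hepatocyte list overlapped, at 36.7 to 72.8 CPM in Trp53ΔIEC and 9.34 to 132 CPM in Trp53ΔIECAktE17K tumours. Whether the heart muscle and Crp reads come from the tumours themselves, and their part in the results on Wnt genes, was not tested.

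Of the 47 members, 39 passed the filter and 8 did not. Among the 39, 7 were called higher in Trp53ΔIECAktE17K tumours, against 3.44% of all genes tested, and 0 were called lower, against 0.756%. The 7 were the R-spondins Rspo1 and Rspo3, the secreted antagonists Sfrp1, Sfrp2 and Frzb, and the receptors Fzd1 and Fzd3. No Wnt ligand and no feedback inhibitor was called. The median log2 fold change of the 39 was 1.05, against 0.01 for all genes tested, with 30 above 0 and 9 below. Of the 39, 18 had an unadjusted p under 0.05, 17 of them higher and only Wnt6 lower, whereas 20.8% of all genes reached that level, 12.8% higher and 8.07% lower. All Trp53ΔIECAktE17K tumours lay above all Trp53ΔIEC tumours for 9 of the 39, and all lay below for 0, against 8.34% and 5.88% of all genes: the 9 were the 7 called members, Wnt9a and Sfrp4. DESeq2 called 15 members, against 13.1% of all genes by that tool, and limma-voom called 7, against 3.31%. The count filter can keep a gene that is high in only 1 group, so these counts are not support for a direction of the family.

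**Figure D1:**
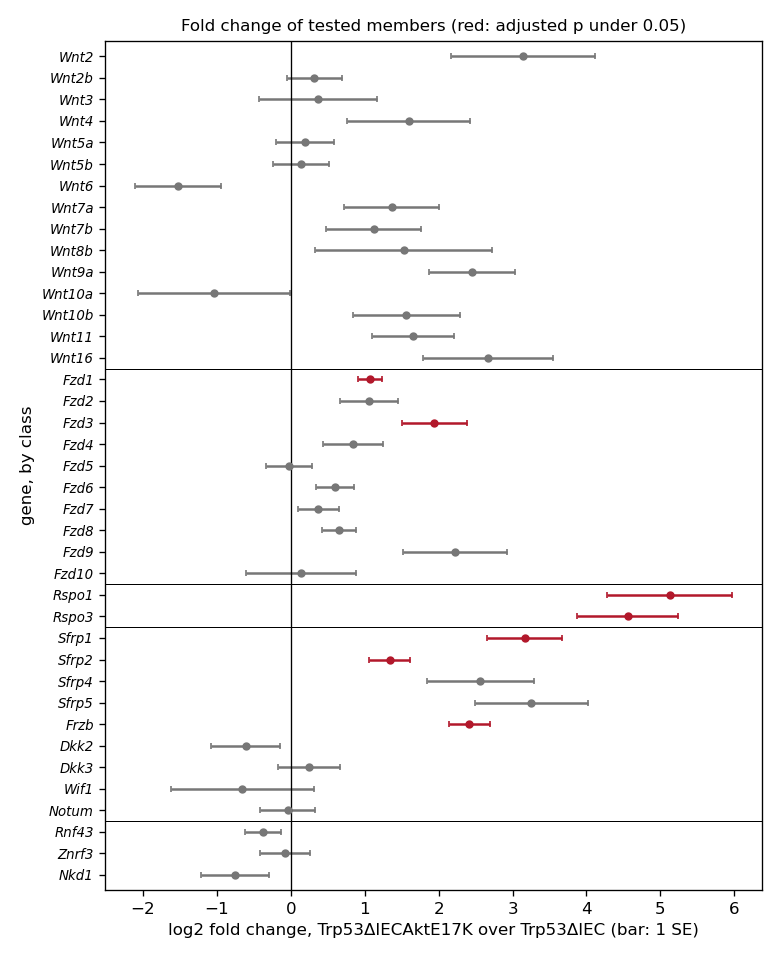
Log2 fold change of the 39 tested members, Trp53ΔIECAktE17K over Trp53ΔIEC, from the edgeR fit, with bars of 1 standard error; rows are genes ordered by class, and red points are the 7 members with an adjusted p under 0.05. The 2 tested R-spondins lie farthest to the right, and 30 of the 39 points lie above 0.

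The count of called members fell whichever tumour was left out, a step that also leaves fewer tumours in a group. A lost call therefore need not mean that the tumour left out carried the difference. With each tumour left out in turn, between 1 and 6 members were called higher and 0 lower: 3 without Trp53ΔIEC replicate 1, 1 without replicate 2, 2 without replicate 3 and 1 without replicate 4, and 3, 5, 5 and 6 without Trp53ΔIECAktE17K replicates 1, 2, 3 and 4. Over all genes the number called higher then ranged from 64 to 702. With the title letter as a term, which leaves the comparison to the 6 tumours lettered B, 1 member was called, Frzb, with a log2 fold change of 2.03 and an adjusted p of 0.0239. The 7 called members kept their direction in all 18 other fits run.

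R-spondin transcripts were scarce in Trp53ΔIEC tumours. Summed per kilobase of merged exons, the 4 R-spondins gave 0.0890 to 0.364 CPM per kb in Trp53ΔIEC tumours and 1.28 to 7.31 CPM per kb in Trp53ΔIECAktE17K tumours. Rspo3 was the most abundant of them in 7 of the 8 tumours on this scale. Rspo1 and Rspo3 passed the filter through the Trp53ΔIECAktE17K group, where they are high, and both were called higher.

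Rspo3 (ENSMUSG00000019880, chromosome 10, 29452416 to 29535867, minus strand, GRCm38) encodes an R-spondin of the intestinal stroma that supports crypt stem cells. Its level was 0.344, 0.226, 0.670 and 0.186 CPM in Trp53ΔIEC replicates 1 to 4 and 12.7, 11.98, 6.55 and 2.24 CPM in Trp53ΔIECAktE17K replicates 1 to 4. The groups did not overlap, and Trp53ΔIECAktE17K replicate 4 was the lowest of its group. For Rspo3 the log2 fold change was 4.56 ± 0.68 (SE; 23.5-fold; adjusted p = 0.0169 by edgeR), with means of 0.357 ± 0.220 and 8.37 ± 4.92 CPM. Without Trp53ΔIEC replicate 2 the adjusted p was 0.0728 and without Trp53ΔIEC replicate 4 it was 0.0675, and the other 6 runs kept the call.

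Rspo1 (ENSMUSG00000028871, chromosome 4, 124986430 to 125009099, plus strand) encodes a further R-spondin. Its values were 0.0383, 0.113, 0.112 and 0 CPM in the Trp53ΔIEC tumours against 4.40, 3.21, 1.55 and 0.652 CPM in the Trp53ΔIECAktE17K tumours. The groups did not overlap, and the order of the 4 Trp53ΔIECAktE17K tumours was the same as for Rspo3. The log2 fold change was 5.13 ± 0.85 (adjusted p = 0.0217 by edgeR), from few reads in the Trp53ΔIEC group. The call was lost without Trp53ΔIEC replicate 1 (adjusted p = 0.0598), 2 (0.0742), 3 (0.0676) or 4 (0.0686) and without Trp53ΔIECAktE17K replicate 1 (0.0549).

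Rspo2 and Rspo4 did not pass the filter. Rspo4 had 16 reads over the Trp53ΔIEC tumours, 14 of them in replicate 2, and 92 over the Trp53ΔIECAktE17K tumours, spread as 50, 26, 7 and 9. Rspo2 had 8 and 13 reads. At this depth neither gave a tested difference.

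**Figure D2:**
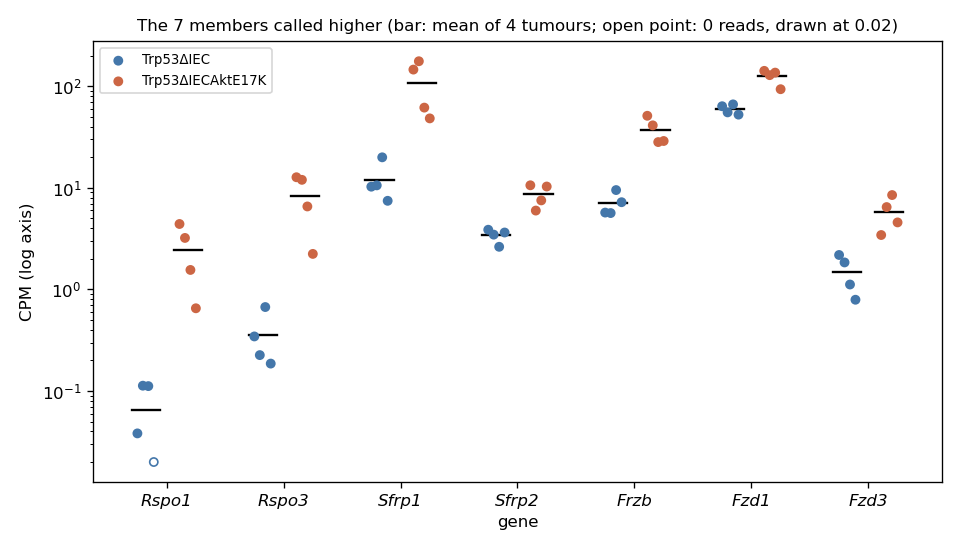
CPM on a log axis of the 7 members called higher, with 1 point per tumour (blue, Trp53ΔIEC; orange, Trp53ΔIECAktE17K) and a bar at the mean of 4 tumours; an open point marks 0 reads, drawn at 0.02. In each of the 7 genes every orange point lies above every blue point, and the gap between groups is widest for Rspo1 and Rspo3.

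Among the 11 secreted antagonists, 9 passed the filter and 3 were called higher: Sfrp1, Sfrp2 and Frzb. No gene of the WIF1, DKK or NOTUM type was called. Sfrp4 and Sfrp5, the other SFRP genes, were at adjusted p-values of 0.0945 and 0.0537. All 5 encode secreted Frizzled-related proteins, which carry a Frizzled-like domain and bind Wnt ligands.

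Frzb (ENSMUSG00000027004, chromosome 2, 80411970 to 80447625, minus strand), also known as Sfrp3, was at 5.70, 5.64, 9.498 and 7.21 CPM in the Trp53ΔIEC tumours and at 51.1, 41.2, 28.2 and 28.9 CPM in the Trp53ΔIECAktE17K tumours. The lowest Trp53ΔIECAktE17K tumour was well above the highest Trp53ΔIEC tumour. On the log2 scale Frzb differed by 2.41 ± 0.28 (5.33-fold; adjusted p = 0.00768 by edgeR), with means of 7.01 ± 1.81 and 37.3 ± 10.96 CPM. Frzb was the only called member to keep its call in all 8 runs with a tumour left out, with a highest adjusted p of 0.0372.

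Sfrp1 (ENSMUSG00000031548, chromosome 8, 23411502 to 23449632, plus strand) was at 10.3, 10.6, 19.9 and 7.45 CPM in the Trp53ΔIEC tumours and at 146, 176, 61.5 and 48.2 CPM in the Trp53ΔIECAktE17K tumours. Replicates 1 and 2 of the Trp53ΔIECAktE17K group stood above replicates 3 and 4, and the groups did not overlap. On the log2 scale Sfrp1 differed by 3.16 ± 0.51 (8.96-fold; adjusted p = 0.02 by edgeR). The call was lost without Trp53ΔIEC replicate 1 (adjusted p = 0.0557), 2 (0.0766), 3 (0.0504) or 4 (0.0741) and without Trp53ΔIECAktE17K replicate 1 (0.0551).

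Sfrp2 (ENSMUSG00000027996, chromosome 3, 83766321 to 83774316, plus strand) was at 3.87, 3.46, 2.63 and 3.63 CPM against 10.6, 5.97, 7.52 and 10.3 CPM. The groups did not overlap, though the gap between them was narrower than for Frzb or Sfrp1. The log2 fold change was 1.34 ± 0.28 (2.53-fold; adjusted p = 0.0402 by edgeR), and the call was lost in all 8 runs with a tumour left out, at adjusted p-values of 0.0504 to 0.114. Sfrp2 shares 347 exon bases with the antisense model Gm26771, and the library kit does not record strand, so reads there cannot be assigned to either by strand.

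Sfrp5 was at 0.268, 0.263, 0.503 and 0.186 CPM in the Trp53ΔIEC tumours and at 4.74, 4.16, 2.44 and 0.326 CPM in the Trp53ΔIECAktE17K tumours. Trp53ΔIECAktE17K replicate 4 fell inside the range of the Trp53ΔIEC group. On the log2 scale Sfrp5 differed by 3.26 ± 0.76 (adjusted p = 0.0537 by edgeR), and without that tumour the adjusted p was 0.00993. Leaving out the lowest tumour of the group moves the value up by design. Sfrp4 was at 0.995, 1.47, 0.615 and 0.372 CPM against 11.3, 1.85, 5.67 and 1.77 CPM, with a log2 fold change of 2.56 ± 0.72 (adjusted p = 0.0945). For Sfrp4 the groups did not overlap, although Trp53ΔIECAktE17K replicates 2 and 4 lay close to the Trp53ΔIEC range.

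Wif1, which binds Wnt ligands directly, was the most abundant member of the whole family per kilobase, with a mean of 193.8 CPM per kb over the 8 tumours. Its values were 806, 688, 335 and 473 CPM in the Trp53ΔIEC tumours against 840.0, 138, 9.74 and 473 CPM in the Trp53ΔIECAktE17K tumours. The Trp53ΔIECAktE17K group held both the highest and the lowest tumour of all 8. The log2 fold change of -0.66 ± 0.97 was smaller than its error (adjusted p = 0.745).

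Notum, a carboxylesterase that removes the lipid from Wnt proteins and a beta-catenin target itself, was at 269, 390.2, 217 and 225 CPM against 386, 148, 375 and 159 CPM. The ranges overlapped nearly completely (log2 fold change -0.04 ± 0.37, adjusted p = 0.963). Notum shares 708 exon bases with Notumos and 210 with Myadml2os, both antisense, so its level is uncertain by that amount of overlap. Dkk2, an LRP antagonist, and Dkk3, a divergent member of that family, ranged from 38.0 to 204 and from 63.3 to 277 CPM, with log2 fold changes of -0.61 ± 0.47 and 0.25 ± 0.42. Neither was called (adjusted p = 0.499 and 0.777). Dkk1 had 2 and 4 reads and Dkk4 27 and 34 reads over the Trp53ΔIEC and Trp53ΔIECAktE17K tumours, and neither passed the filter.

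Frizzled receptors are the surface proteins that bind the ligands, and all 10 genes passed the filter. Fzd1 and Fzd3 were called higher and the other 8 were not called, with 0 lower. The median log2 fold change of the 10 was 0.75. Fzd1 had the highest mean of the class per kilobase, 21.9 CPM per kb over all 8 tumours, and was the leading Frizzled in 6 of the 8; Fzd10 led in Trp53ΔIEC replicates 2 and 4.

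Fzd1 (ENSMUSG00000044674, chromosome 5, 4753839 to 4758035, minus strand) was at 63.5, 55.2, 66.2 and 52.5 CPM in the Trp53ΔIEC tumours and at 142, 128, 136 and 93.4 CPM in the Trp53ΔIECAktE17K tumours. Spread within each group was small, and the groups did not overlap. For Fzd1 the log2 fold change was 1.07 ± 0.16 (2.10-fold; adjusted p = 0.0157 by edgeR). The call was lost without Trp53ΔIEC replicate 2 (adjusted p = 0.0665), 3 (0.0563) or 4 (0.0657).

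Fzd3 (ENSMUSG00000007989, chromosome 14, 65192449 to 65262463, minus strand), a receptor known for its part in planar cell polarity and axon guidance, was at 2.18, 1.84, 1.12 and 0.791 CPM against 3.43, 6.46, 8.48 and 4.56 CPM. The groups did not overlap. The log2 fold change was 1.94 ± 0.44 (3.84-fold; adjusted p = 0.0473 by edgeR), and the call was lost in all 8 runs with a tumour left out, at adjusted p-values of 0.0523 to 0.126.

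Another 4 Frizzleds had an unadjusted p under 0.05 without a call. Fzd9 was at 0.842, 2.11, 0.726 and 1.30 CPM against 2.07, 4.86, 14.1 and 2.33 CPM (log2 fold change 2.22 ± 0.70, adjusted p = 0.121), led by Trp53ΔIECAktE17K replicate 3. Fzd2 was at 11.9, 8.27, 7.37 and 19.0 CPM against 29.4, 34.9, 18.2 and 14.2 CPM (1.05 ± 0.39, adjusted p = 0.173), with overlap between the groups. Fzd8 was at 7.69, 6.54, 6.26 and 8.79 CPM against 12.8, 12.6, 11.8 and 8.71 CPM (0.65 ± 0.23, adjusted p = 0.149). For Fzd8 only replicate 4 of each group reached the range of the other group. Fzd6 was at 38.3, 30.8, 26.3 and 34.4 CPM against 65.7, 28.7, 59.2 and 42.9 CPM (0.60 ± 0.26, adjusted p = 0.239), and Trp53ΔIECAktE17K replicate 2 lay inside the Trp53ΔIEC range. Fzd4, Fzd5, Fzd7 and Fzd10 had adjusted p-values of 0.28 to 0.98. Of these, Fzd10 varied most between tumours, from 5.72 to 88.4 CPM, with both extremes in the Trp53ΔIECAktE17K group.

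**Figure D3:**
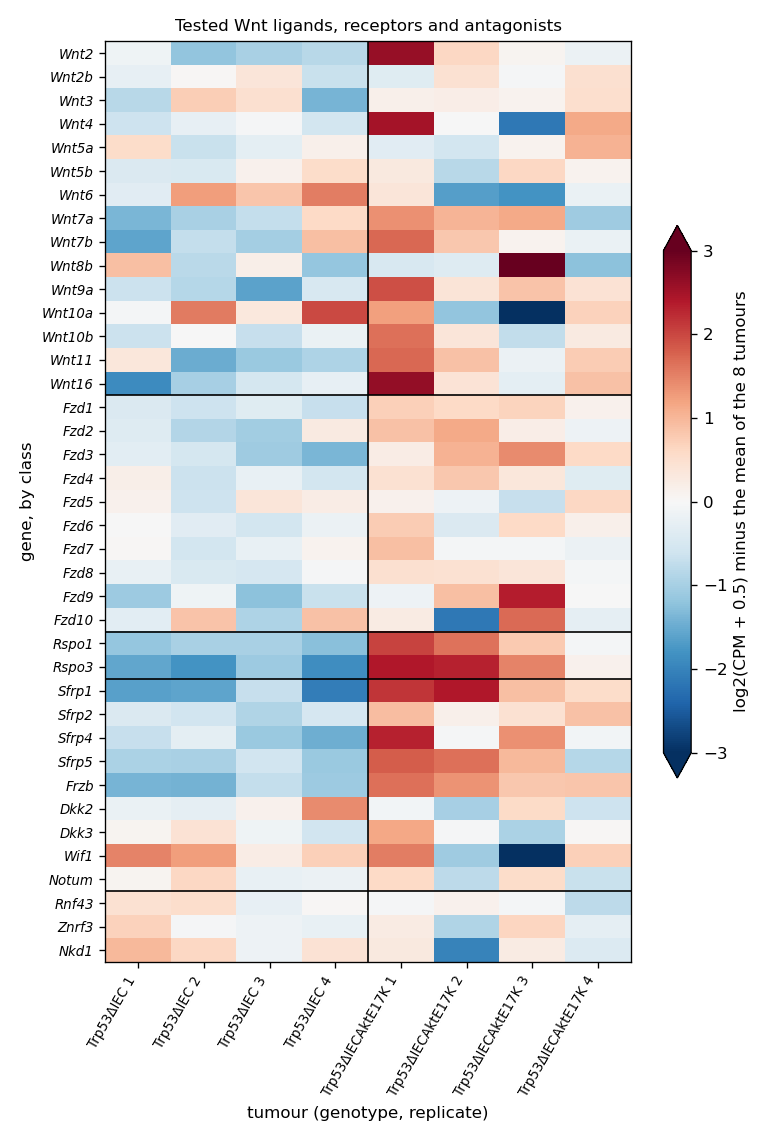
Level of each tested member in each tumour, as log2(CPM + 0.5) minus the mean of the 8 tumours; rows are the 39 genes by class, columns the 4 Trp53ΔIEC tumours to the left of the vertical line and the 4 Trp53ΔIECAktE17K tumours to its right, red above and blue below the mean. The Rspo3, Sfrp1, Sfrp2 and Frzb rows change colour at the line, Sfrp4 and Sfrp5 do not do so in every tumour, while ligand rows such as Wnt8b and Wnt10a carry their strongest colour in a single tumour.

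Wnt ligands start the signal. Of the 19 ligand genes 15 passed the filter and 0 were called by edgeR, against 4.2% of all genes in either direction. An unadjusted p under 0.05 by edgeR was reached by 5, against 20.8% of all genes, and DESeq2 called 4, against 13.1%. Log2 fold changes were above 0 for 13 of the 15 tested ligands and below 0 for 2. Their median was 1.36, against 0.01 for all genes tested. As the count filter can keep a gene that is high in only 1 group, these counts are not support for a direction of the ligands. Summed ligand transcripts came to 43.9 to 110.0 CPM per kb in Trp53ΔIEC tumours and 35.7 to 97.9 CPM per kb in Trp53ΔIECAktE17K tumours, so the totals overlapped.

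Wnt6 had the highest mean level of the ligands, 21.6 CPM per kb over the 8 tumours, and was the only member with an unadjusted p under 0.05 in the lower direction. Its level was 28.0, 84.9, 63.7 and 104 CPM in Trp53ΔIEC tumours against 45.8, 10.99, 9.87 and 31.0 CPM in Trp53ΔIECAktE17K tumours. The lowest Trp53ΔIEC tumour lay within the range of the other group. For Wnt6 the log2 fold change was -1.52 ± 0.58 (adjusted p = 0.18 by edgeR). Without Trp53ΔIECAktE17K replicates 1 and 4, the highest of their group for Wnt6, the log2 fold change was -2.78 (adjusted p = 0.0482 by edgeR). Leaving out the highest tumours moves the value down by design, and no other fit run brought Wnt6 under the threshold. As a share of all ligand transcripts per kilobase, Wnt6 made up 29.1%, 48.3%, 49.6% and 43.3% in the Trp53ΔIEC tumours and 21.3%, 14.0%, 12.3% and 21.8% in the Trp53ΔIECAktE17K tumours. These shares did not overlap. The shares of Wnt9a (0.115% to 0.629% against 1.14% to 2.86%) and Wnt16 (0.08% to 0.46% against 0.921% to 3.40%) did not overlap either, and both were higher in Trp53ΔIECAktE17K tumours. Shares within a tumour add up to a fixed total, so each moves with the others, and none was tested.

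Wnt10a lies 6193 bases from Wnt6 on chromosome 1. It was at 20.7, 64.7, 27.2 and 86.5 CPM in Trp53ΔIEC tumours against 51.7, 9.34, 0.462 and 35.4 CPM in the Trp53ΔIECAktE17K group (log2 fold change -1.04 ± 1.03, adjusted p = 0.613). Both neighbours were highest in Trp53ΔIEC replicate 4 and lowest in Trp53ΔIECAktE17K replicate 3, and within each group the 4 tumours fell in the same order for both genes. Wnt5a, a ligand known for signalling without beta-catenin and for expression in the mesenchyme, ranged from 42.3 to 139 CPM and was not called (log2 fold change 0.19 ± 0.39, adjusted p = 0.824). It was the leading ligand per kilobase in Trp53ΔIECAktE17K replicates 2, 3 and 4 and in Trp53ΔIEC replicate 1.

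**Figure D4:**
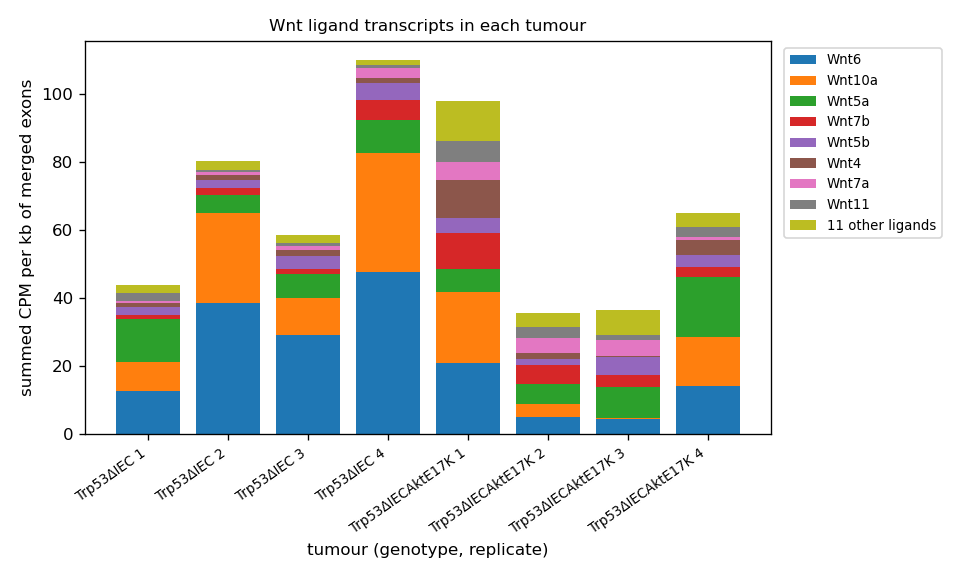
Wnt ligand transcripts in each tumour as summed CPM per kb of merged exons, stacked by gene for the 8 most abundant ligands and with the 11 others as a single block. Wnt6 and Wnt10a take most of the bar in Trp53ΔIEC replicates 2 to 4, and the Trp53ΔIECAktE17K bars are split over more genes.

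Wnt9a was the ligand nearest to a call. Its level was 0.918, 0.714, 0.223 and 1.07 CPM against 7.87, 2.39, 3.49 and 2.47 CPM, with no overlap between the groups. The log2 fold change was 2.45 ± 0.58 (adjusted p = 0.0554 by edgeR). Its neighbour on chromosome 11, Wnt3a, 16175 bases away, did not pass the filter, with 0 reads in the Trp53ΔIEC tumours and 36 reads in the Trp53ΔIECAktE17K tumours, spread as 26, 3, 0 and 7. With 3 reads put in place of the 0 and scaling by assigned reads, the pooled counts give a ratio of 11.98. This ratio takes the 36 reads as exact, and 26 of them came from 1 tumour. It is therefore not a lower limit for the group.

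Wnt2, Wnt11 and Wnt16 also had an unadjusted p under 0.05, and in each the first Trp53ΔIECAktE17K tumour was the highest. Wnt2 was at 0.689, 0.0752, 0.168 and 0.233 CPM against 7.53, 1.52, 0.882 and 0.652 CPM (log2 fold change 3.14 ± 0.98, adjusted p = 0.119). Wnt11, which acts largely without beta-catenin, was at 9.64, 2.33, 3.18 and 3.72 CPM against 25.7, 14.3, 6.55 and 13.0 CPM (1.65 ± 0.56, adjusted p = 0.139). Wnt16 was at 0.153, 0.714, 1.17 and 1.54 CPM against 14.5, 2.67, 1.47 and 3.91 CPM (2.66 ± 0.88, adjusted p = 0.134). In all 3 genes the groups overlapped. The remaining tested ligands, Wnt2b, Wnt3, Wnt4, Wnt5b, Wnt7a, Wnt7b, Wnt8b and Wnt10b, had adjusted p-values of 0.265 to 0.875. Wnt1, Wnt8a and Wnt9b did not pass the filter, with 2, 1 and 50 reads over the Trp53ΔIEC tumours and 8, 1 and 30 over the Trp53ΔIECAktE17K tumours. Wnt5a, Wnt7b, Wnt11 and Fzd6 each share between 152 and 364 exon bases with a model on the opposite strand, so their levels carry the same uncertainty as that of Sfrp2.

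Across the whole family the first Trp53ΔIECAktE17K tumour held the highest level of 20 of the 39 tested members and the lowest of 0, against 11.1% and 10.3% of all genes tested. That tumour also had the most squamous keratin RNA: Krt5 was at 4606, 121, 2.35 and 629.9 CPM in Trp53ΔIECAktE17K replicates 1 to 4 and at 0.714 CPM or lower in Trp53ΔIEC tumours. Summed over the 8 squamous markers listed, levels were 50.9 to 233 CPM in Trp53ΔIEC and 196 to 15460 CPM in Trp53ΔIECAktE17K tumours, and 4 of 7 tested were called higher by edgeR, 6 by DESeq2 and 0 by limma-voom. In 6 of the 39 tested members the 4 Trp53ΔIECAktE17K tumours fell in the same order as for Krt5: Wnt4, Wnt6, Wnt10a, Wnt16, Dkk3 and Wif1. Over all genes tested 5.96% had that order. Wnt4 was at 46.5, 7.86, 1.39 and 17.9 CPM against 4.97 to 7.65 CPM in Trp53ΔIEC tumours (log2 fold change 1.60 ± 0.83, adjusted p = 0.318). Without Trp53ΔIECAktE17K replicates 1 and 4, the tumours with the most Krt5, 6 members were called higher and 1 lower: Fzd3 (adjusted p = 0.0514) and Sfrp2 (0.141) dropped out, and Sfrp5 (0.026) and Wnt6 came in. For Wnt6 the tumours left out were the highest of the Trp53ΔIECAktE17K group, and for Sfrp5 they were its highest and its lowest.

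Feedback inhibitors are beta-catenin targets that dampen the pathway: Rnf43 and Znrf3 encode the ligases that remove Frizzleds, and Nkd1 encodes a Dishevelled-binding protein. None of the 3 was called, 0 had an unadjusted p under 0.05, and their median log2 fold change was -0.38. Nkd1 was the most abundant per kilobase, with a mean of 119.3 CPM per kb. It was at 938, 726, 426 and 639 CPM in the Trp53ΔIEC tumours against 584, 118, 559.9 and 358 CPM in the Trp53ΔIECAktE17K tumours (log2 fold change -0.75 ± 0.46, adjusted p = 0.394). The groups overlapped, and the lowest value was that of Trp53ΔIECAktE17K replicate 2. Rnf43 ranged from 214 to 362 CPM and from 145 to 276 CPM (-0.38 ± 0.24, adjusted p = 0.418), and Znrf3 from 58.9 to 112 CPM and from 36.7 to 108 CPM (-0.08 ± 0.34, adjusted p = 0.926).

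Further genes of the pathway were read from lists that hold no member of the family. These lists are not separate, as Axin2, Lgr5, Tcf7 and Lef1 each stand in the target list and in another. Among 15 beta-catenin target genes, 1 was called, in the lower direction, against 0.756% of all genes tested. Of the 15, 14 had a log2 fold change below 0, and the median was -0.38, against 0.01 for all genes tested. The called gene was the crypt stem cell factor Ascl2, at 49.8, 49.8, 33.7 and 37.0 CPM against 13.0, 14.7, 3.15 and 12.9 CPM (log2 fold change -1.96 ± 0.43, adjusted p = 0.0463 by edgeR). The groups did not overlap, and with a tumour left out the call was kept only without Trp53ΔIECAktE17K replicate 3 (adjusted p = 0.0154). Axin2, the usual reporter of beta-catenin activity, was at 529, 632, 312 and 468 CPM against 329, 133, 120 and 158 CPM (-1.39 ± 0.36, adjusted p = 0.0752 by edgeR). It passed the threshold without Trp53ΔIECAktE17K replicate 1 (0.0374), the highest of its group for Axin2, a step that moves the value down by design. In every other run with a single tumour left out Axin2 was not called (0.0953 to 0.174). Intestinal epithelium markers also lay mostly below 0, 7 of 8 with a median of -0.41, and their part in the values of the targets and feedback inhibitors was not tested. The only target with a positive value was the R-spondin receptor Lgr5, at 11.9, 10.4, 55.6 and 17.0 CPM against 31.5, 45.4, 227 and 11.7 CPM (1.74 ± 0.94, adjusted p = 0.332).

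**Figure D5:**
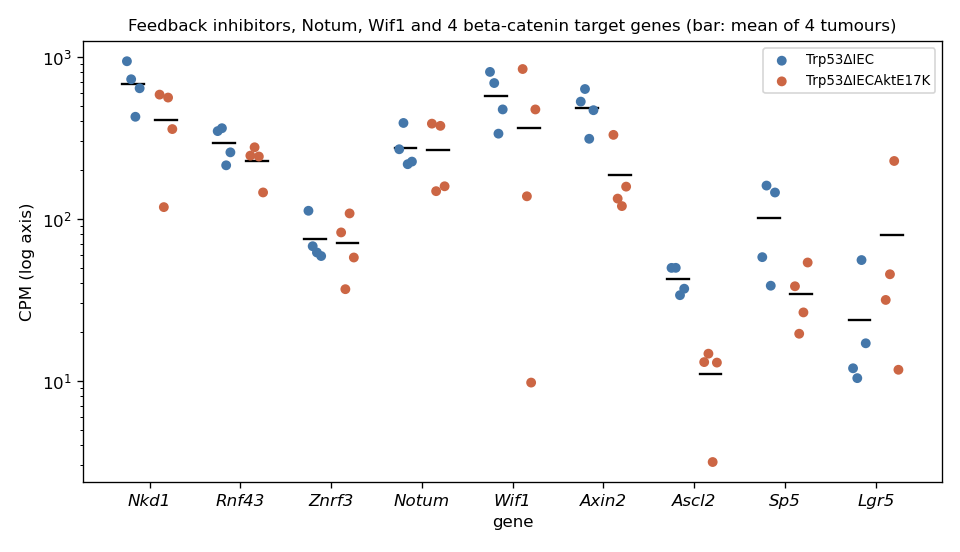
CPM on a log axis of Nkd1, Rnf43, Znrf3, Notum and Wif1 and of the beta-catenin targets Axin2, Ascl2, Sp5 and Lgr5, with 1 point per tumour (blue, Trp53ΔIEC; orange, Trp53ΔIECAktE17K) and a bar at the mean of 4 tumours. Ascl2 is the only gene of the 9 in which all orange points lie below all blue points, and Wif1 spans 9.74 to 840.0 CPM within the orange group.

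Of 19 cytoplasmic genes, which relay the signal from the receptor and form the beta-catenin destruction complex, 1 was called higher and 2 lower. Over all genes tested 3.44% were called higher and 0.756% lower. Nkd2, a relative of the member Nkd1, was at 1.799, 3.76, 1.95 and 4.89 CPM against 64.0, 37.6, 111 and 12.9 CPM (log2 fold change 4.18 ± 0.69, adjusted p = 0.0215 by edgeR), while Nkd1 had a value below 0. The call of Nkd2 was kept without Trp53ΔIECAktE17K replicate 2, 3 or 4 and lost in the other 5 runs. Limma-voom did not call Nkd2 (adjusted p = 0.0622). Dvl3, a Dishevelled gene, was at 39.6 to 49.8 CPM against 23.8 to 26.3 CPM (-0.82 ± 0.13, adjusted p = 0.0171). The call of Dvl3 was lost without Trp53ΔIEC replicate 2 (0.0664), 3 (0.0504) or 4 (0.0638) and without Trp53ΔIECAktE17K replicate 1 (0.0501). Tnks, a tankyrase that marks AXIN proteins for destruction, was at 10.2 to 17.3 CPM against 5.42 to 6.47 CPM (-1.08 ± 0.23, adjusted p = 0.0412), and its call was lost in all 8 runs with a tumour left out (0.0515 to 0.107) and without the count filter (0.0593). The groups did not overlap for any of these 3.

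No gene was called among 11 co-receptors and R-spondin receptors, 2 Wnt secretion genes, 13 genes of the nuclear beta-catenin complex and 10 genes of planar cell polarity, where edgeR gave unadjusted p-values under 0.05 for 1, 1, 5 and 2 genes. DESeq2 called 1, 0, 2 and 2 of them, and limma-voom called 0 in each. Over all genes 20.8% had an unadjusted p under 0.05 by edgeR, DESeq2 called 13.1% and limma-voom 3.31%. The smallest p in each list belonged to Ror1, a co-receptor for Wnt5a (log2 fold change 1.31, adjusted p = 0.135), Porcn, the acyltransferase that adds the lipid to Wnt proteins (0.98, 0.172), Tcf7l1, a TCF factor that represses targets (1.46, 0.0508), and Celsr2, a polarity cadherin (1.71, 0.107). Median log2 fold changes were 0.23, 0.46, -0.30 and 0.23, against 0.01 for all genes tested.

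In a whole tumour, fewer cells of a type and less RNA per cell cannot be told apart, and stromal markers differed between the groups along with the called members. For the marker counts that follow, 3.44% of all genes tested were called higher by edgeR and 0.756% lower. Of the fibroblast markers 5 of 10 were called higher, and their summed level was 2189 to 3403 CPM in Trp53ΔIEC and 4474 to 6958 CPM in Trp53ΔIECAktE17K tumours. Of the smooth muscle markers 7 of 8 were called higher (271 to 451 against 1078 to 1775 CPM), and of the pericyte markers 4 of 6 (82.5 to 129 against 164 to 352 CPM). Of the enteric glia and neuron markers 3 of 6 tested were called higher, and Sox10 was at 0 reads in all Trp53ΔIEC tumours. Of the mesothelium markers 1 of 3 tested, Wt1, was called higher, and Upk3b was at 0 reads in the Trp53ΔIEC tumours. The summed level of that list overlapped, at 2212 to 2926 against 1423 to 3464 CPM. It includes Krt19, which is also in the intestinal epithelium list, so this sum is not a measure of mesothelium alone. Among 8 subepithelial fibroblast and telocyte markers 1 was called higher, Grem1, a BMP antagonist of the crypt base stroma. In that list 6 of 8 log2 fold changes were below 0, the median was -0.18, and the summed level was 668 to 935 against 826 to 1093 CPM. Its marker Pdgfra also stands in the fibroblast list, so these lists are not separate. The intestinal epithelium markers were 0 of 8 called, at 9011 to 11659 against 4625 to 12914 CPM, so epithelial transcripts were present in every tumour. Endothelial markers were 1 of 6 called higher (155.9 to 289 against 226 to 408 CPM) and macrophage markers 0 of 5 (402 to 902 against 367 to 1069 CPM).

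The called members were therefore also set against the stromal markers within each tumour. Per 1000 fibroblast marker reads, Rspo1 was at 0 to 0.0515 in Trp53ΔIEC and 0.139 to 0.633 in Trp53ΔIECAktE17K tumours, a ratio of means of 15.3. For Rspo3 the ranges were 0.0607 to 0.245 and 0.478 to 1.83 (ratio 10.8), for Sfrp1 2.43 to 7.29 and 10.3 to 25.5 (4.02), and for Frzb 1.68 to 3.47 and 5.96 to 7.35 (2.56). These 4 genes did not overlap between the groups on this scale, whereas Fzd1 (ratio 1.05), Sfrp2 (1.29) and Fzd3 (2.002) did. Per 1000 smooth muscle marker reads the picture differed. Only Rspo1 was higher in every Trp53ΔIECAktE17K tumour, at 0.463 to 2.98 against 0 to 0.349 (ratio 9.15). Rspo3, Sfrp1, Frzb and Fzd3 overlapped, with ratios of 5.89, 2.26, 1.27 and 1.05, and Fzd1 and Sfrp2 were lower without overlap, with ratios of 0.522 and 0.605. No called member overlapped between the groups in CPM, and the ratios were not taken for other genes. The share of all genes without overlap on these scales is therefore not known. These ratios are descriptions, and the part of cell content in the calls was not tested.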

How the data were processed

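RNA from 8 whole colon tumours was sequenced after extraction with the RNeasy Mini Kit and library preparation with the TruSeq mRNA v2 kit, per the labels' protocols; this kit selects polyadenylated RNA and does not record strand. The authors deposited, for each tumour, a table of read counts per Ensembl gene without normalisation. The submitters' processing notes name CASAVA 1.8.2, STAR 2.3.0, SAMtools 1.2, HTSeq 0.6, DESeq2 1.8.1 and the build mm10; for annotation release, strand setting and read filters the entry is: not given in the sources used here. The 5 closing lines of each table, which name no gene, were left out. They held, among others, reads outside any feature, at 9.74% to 11.7% of reads with a unique alignment.

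Names, positions and exon lengths were those of GENCODE M21 (GRCm38), where 36602 of 38355 identifiers (95.4%) were found. Genes were kept by filterByExpr, scaled by TMM and tested with the quasi-likelihood F-test (robust) of edgeR 4.0.16 in R 4.3.3 with genotype as the only term, on all 8 tumours, 4 per group, with Benjamini-Hochberg adjustment over all 16539 genes. CPM values use the TMM-scaled library size of the kept genes, and CPM per kb divides them by the merged exon length. DESeq2 1.42.0, limma-voom (limma 3.58.1), other scalings and filters, the replicate number or the title letter as a term, and fits without 1 or 2 tumours were run as alternatives. The script was tested on simulated data. The mice are separate animals, so p-values refer to variation between mice of these groups.

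The members and lists were chosen with earlier results of these data known. Values in every tumour are given for members with an unadjusted p under 0.05 and for the most abundant member of each class. From each pathway list the called genes are named, or those with the smallest p where none was called. Axin2, Lgr5 and Sp5 of the target list are named outside this rule. The order of Krt5 and the tally of the highest and lowest tumour were not part of the rule either. Ratios to marker reads, Wnt10a, Wnt4, Wnt3a and Rspo4 were added after their values were seen. Lists of pathway genes and of cell type markers were described by counts and medians only. Of the enteric glia and neuron list, 1 gene and the summed level are not reported here.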

Additional observations from a re-analysis of the deposited data

Results flagged for a closer look

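Levels of 39 tested members and 6 pathway genes were checked for a single tumour far from the other 3 of its group, in 90 groups of 4 values, and 8 stood apart. The limit used marks about 1 group in 20 by chance where values follow a normal distribution. The check took CPM without a log scale, so that rate need not hold here. Wnt2 was at 7.53 CPM in Trp53ΔIECAktE17K replicate 1, against 0.652 to 1.52 CPM in the other 3. Fzd7 was at 67.1 CPM in the same tumour, against 31.4 to 34.1 CPM. Trp53ΔIECAktE17K replicate 3 had the highest Wnt8b, at 15.8 CPM against 0.373 to 1.07 CPM, the highest Lgr5, at 227 CPM against 11.7 to 45.4 CPM, and the lowest Ascl2, at 3.15 CPM against 12.9 to 14.7 CPM. In the Trp53ΔIEC group, Dkk2 was at 204 CPM in replicate 4, against 62.8 to 83.1 CPM, Znrf3 at 112 CPM in replicate 1, against 58.9 to 67.7 CPM, and Lgr5 at 55.6 CPM in replicate 3, against 10.4 to 17.0 CPM. Each of these is a value of 1 tumour, and no cause was tested.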

How the results depend on the processing

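The 8 members under the count filter had too few reads for a tested difference. DESeq2 called 1416 genes higher and 753 lower, 15 members higher, 4 ligands, 4 Frizzleds, 5 antagonists, 1 co-receptor, 5 cytoplasmic, 2 nuclear and 2 polarity genes and 3 target genes. Total-count scaling called 1 Frizzled and 1 nuclear gene, upper-quartile scaling 1 nuclear gene, and no count filter 1 Frizzled, 1 nuclear and 0 target genes. The title letter as a term left 90 genes higher and 6 lower, 1 member higher (1 antagonist, 0 Frizzleds, 0 R-spondins), 0 cytoplasmic, 1 nuclear and 0 target genes. Without both Trp53ΔIECAktE17K replicates 1 and 4, 223 genes were lower, 1 member was lower, and 1 ligand, 1 Frizzled, 1 nuclear and 2 target genes were called. Limma-voom, RLE scaling and a minimum of 10 counts in 4 tumours moved none of these counts by over 1.5 times, and exon length did not change which member led each of the 5 classes.

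The replicate numbers are shared by name only: same-numbered tumours had correlated deviations of -0.039, 0.0083, -0.24 and 0.0093, and the mice are separate. With the replicate block 48 genes were higher and 2 lower, and 0 members, Frizzleds, R-spondins, antagonists, cytoplasmic and target genes were called.

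With 1 tumour left out, 64 to 702 genes were higher and 10 to 247 lower, with 1 to 6 members higher, 0 to 1 Frizzleds, 0 to 2 R-spondins, 1 to 3 antagonists, 0 to 2 cytoplasmic genes, 0 to 1 polarity genes and 0 to 1 target genes; ligands, feedback inhibitors, co-receptors, secretion and nuclear genes stayed at 0. Log2 fold changes of uncalled members changed sign for Wnt4 (-0.42), Wnt5a (-0.22) and Dkk3 (-0.45) without both replicates 1 and 4, for Fzd5 with upper-quartile scaling (0.019) and the letter (0.029), for Fzd10 with limma-voom (-0.30) and the block (-0.26), and for Dkk3 (-0.38) and Znrf3 (0.14) with the letter. With 1 tumour left out, the values of these members and of others that changed sign ranged from -0.028 to 0.99 for Wnt3, -0.26 to 0.43 for Wnt5a, -0.076 to 0.38 for Wnt5b, -0.95 to 2.22 for Wnt8b, -0.29 to 0.17 for Fzd5, -0.74 to 0.47 for Fzd10, -0.28 to 0.51 for Dkk3, -0.31 to 0.17 for Notum and -0.35 to 0.17 for Znrf3. The causes were not tested.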
